A study of Mus musculus with 2 samples.

Results

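The *Nkx2* homeobox genes encode the NK2 branch of homeodomain transcription factors, and their chromatin accessibility was examined by ATAC-seq in wildtype mouse hearts. The 7 genes of this family named here (*Nkx2-1*, *Nkx2-2*, *Nkx2-3*, *Nkx2-4*, *Nkx2-5*, *Nkx2-6* and *Nkx2-9*) were taken by name from the 21938 protein-coding genes of GENCODE M21 on GRCm38/mm10, and the rule uses no measured value. For each gene, accessible regions were collected within 1 kb of every annotated transcription start and in a window of the gene body plus 50 kb on each side. The study from which the data come concerns the gene desert next to *Shox2*, and its ATAC-seq consists of whole hearts of wildtype FVB embryos at E11.5, in 2 replicates that each combine 2 microdissected hearts. Both replicates form 1 group, so that no contrast between conditions exists and no test was possible. All values below are descriptions of these 2 libraries.

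NK2 factors bind DNA through the homeodomain and act early in the specification of organs. *Nkx2-5* is a core cardiac regulator, active from the heart fields onwards in the myocardium, where its product works with GATA, T-box, MEF2 and HAND factors. *Nkx2-3* is known from pharyngeal and gut tissue and from the spleen, and *Nkx2-6* from the pharyngeal endoderm and the outflow tract and sinus region of the early heart. The other members are known outside the heart: *Nkx2-1* in thyroid, lung and ventral forebrain, *Nkx2-2* in the ventral neural tube and pancreas, *Nkx2-4* in the hypothalamic and thyroid primordia, and *Nkx2-9* in the ventral central nervous system. *Nkx2-5*, *Nkx2-3* and *Nkx2-6* are therefore compared as heart and pharyngeal members with the 4 neural and endodermal members. Because whole hearts were assayed, a weak signal from many cells and a strong signal from few cells cannot be told apart.

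Peak lists were called by the authors in each replicate separately, with 118027 peaks in replicate 1 and 114783 in replicate 2. A region counted as shared is the stretch covered by a peak of both replicates, of which there were 98924. The level of a peak is its fold enrichment, which divides the reads piled up at the summit by a uniform background, after 1 is added to each. That background was 2.68 reads in replicate 1 against 2.98 in replicate 2, so that each value rests on few reads, and 95% Poisson intervals of the summit pileup cover counting error only. Read totals are unknown. Among marker genes of heart tissue, all 8 of cardiomyocytes, all 4 of endothelium and endocardium and all 3 of epicardium had a shared region at a start, as did all 3 of blood, against 3 of 5 neural, 1 of 4 hepatocyte and 1 of 2 skeletal muscle markers. These lists are short, and the neural share of 60.0% was near the 67.6% of all protein-coding genes.

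Sequences under regions more than 5 kb from the member genes are shown first. *Nkx2-5* and *Nkx2-3* had their highest regions there, and *Nkx2-6* had none at its start. For *Nkx2-6* the highest region upstream of the gene was taken. Each sequence is the 300 bp window on the replicate 1 summit, on the forward strand of GRCm38/mm10. None overlaps an annotated exon, and those of *Nkx2-5* and *Nkx2-3* lie in introns of lincRNA genes, while that of *Nkx2-6* is intergenic. Capitals mark matches, on either strand, to any of 6 short motifs, spelled below, of the GATA, NK2, T-box, TEAD, MEF2 and HAND families. The windows are named by the distance of their region from the nearest annotated start of the gene, negative upstream, and lie at chr17:26884949-26885248 and chr17:26892616-26892915 for *Nkx2-5*, chr19:43571088-43571387 for *Nkx2-3* and chr14:69141044-69141343 for *Nkx2-6*.
Nkx2-5 at -39.8 kb: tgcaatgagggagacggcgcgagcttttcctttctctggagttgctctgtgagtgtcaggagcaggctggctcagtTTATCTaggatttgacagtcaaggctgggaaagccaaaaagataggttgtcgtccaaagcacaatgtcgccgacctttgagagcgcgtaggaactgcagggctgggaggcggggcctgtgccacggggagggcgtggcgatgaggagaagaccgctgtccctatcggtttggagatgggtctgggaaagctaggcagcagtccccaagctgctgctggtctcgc
Nkx2-5 at -47.5 kb: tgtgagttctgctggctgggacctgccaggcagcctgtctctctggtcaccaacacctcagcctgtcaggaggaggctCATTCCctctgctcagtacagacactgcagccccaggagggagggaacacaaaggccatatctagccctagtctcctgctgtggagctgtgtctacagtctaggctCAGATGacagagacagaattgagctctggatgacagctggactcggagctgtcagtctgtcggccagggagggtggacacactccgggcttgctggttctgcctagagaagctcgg
Nkx2-3 at -40.8 kb: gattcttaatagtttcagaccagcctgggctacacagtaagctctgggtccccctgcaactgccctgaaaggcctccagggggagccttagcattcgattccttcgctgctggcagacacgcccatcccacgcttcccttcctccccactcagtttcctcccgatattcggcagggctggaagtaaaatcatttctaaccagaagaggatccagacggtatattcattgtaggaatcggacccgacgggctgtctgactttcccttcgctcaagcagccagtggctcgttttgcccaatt
Nkx2-6 at -30.4 kb: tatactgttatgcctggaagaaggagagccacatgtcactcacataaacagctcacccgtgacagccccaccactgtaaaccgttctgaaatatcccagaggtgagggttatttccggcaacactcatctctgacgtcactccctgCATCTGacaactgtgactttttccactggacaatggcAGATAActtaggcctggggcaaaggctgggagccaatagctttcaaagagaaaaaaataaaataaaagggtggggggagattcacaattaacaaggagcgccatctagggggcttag

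The first *Nkx2-5* window has 1 GATA match, the other has a TEAD match and a HAND-type match, and the *Nkx2-6* window has a GATA match and a HAND-type match. The *Nkx2-3* window holds none of the 6 motifs. The windows of all 48 shared regions of the family were searched beside the 98850 windows of all shared regions, and regions that are parts of 1 replicate 1 peak share a window. The GATA motif, spelled AGATAA, was present in 12 of 48 (25.0% against 22.4%). The motif of the NK2 factors themselves, spelled TNAAGTG where N is any base, was present in 8 (16.7% against 16.4%). The E-box searched for HAND factors, with the letters CATCTG, was present in 11 (22.9% against 22.2%). The TEAD motif, with the letters GGAATG, was present in 6 (12.5% against 20.5%). All were among the 26 regions of heart and pharyngeal members (23.1%), with 0 among the 22 regions of neural and endodermal members. In the same order, the counts were 6 and 6 for GATA, 4 and 4 for NK2 and 5 and 6 for the HAND E-box. The MEF2 motif, spelled TAAAAATA, was present in 1 window (3.90% of all). The T-box motif, with the letters GGTGTGA, was present in 0 (4.60% of all). No motif overlapped another in the windows printed above, and a match is a run of letters, not a bound site. On replicate 2 summits the NK2 count was 5 of 48 and the T-box count 1.

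Promoters of the family were open in this tissue for nearly every member, whether or not it is known from the heart. In total, 6 of the 7 genes had a shared region within 1 kb of at least 1 annotated start, where 67.6% of all protein-coding genes did. Of the 12 annotated starts of the family, 10 had a shared region, where 58.0% of all annotated starts of protein-coding genes did. The starts are not independent, since 4 belong to *Nkx2-2*, among them those at 147194242 and 147194243. The gene without one was *Nkx2-6*, a member known from the early heart and pharynx, whereas all 4 neural and endodermal members had one. The status of the start therefore did not separate the sets.

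Among the 6 genes with an open start, *Nkx2-5* had the highest mean of both replicates, with 12.0-fold enrichment in replicate 1 and 9.30-fold in replicate 2 (43 and 36 reads at the summit) in the region from 26841289 to 26841872 on chromosome 17. *Nkx2-4* followed with 9.51 and 9.80, and *Nkx2-9* with 8.15 and 10.1. *Nkx2-2* reached 8.42 and 8.30, at starts of processed transcripts. The highest region at its protein-coding starts had 5.43 and 6.03. The mean there, 5.73, was below that of every other gene in this order.
The order then continued with *Nkx2-1*, at 8.69 and 7.54, and closed with *Nkx2-3*, at 9.24 and 6.54. In none of the 15 pairs of these 6 genes were the counting intervals apart, in either replicate, so no neighbours in this order differ beyond counting error. In replicate 2 alone, *Nkx2-9* and *Nkx2-4* came above *Nkx2-5*. The mean of both replicates ran from 7.89 to 10.6, and lay low among open promoters: for the 14820 protein-coding genes with a shared region at a start the median was 24.5, and 17.2% of those genes had a lower value than *Nkx2-5*, and fewer had one lower than any other member.

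**Figure D1:**
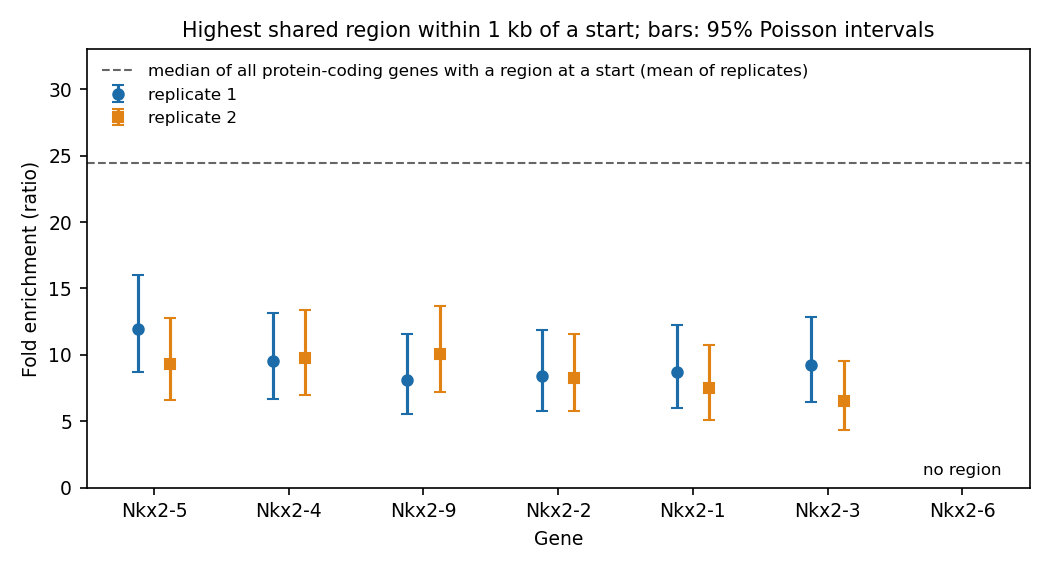
Fold enrichment (ratio) of the highest shared region within 1 kb of a start for each gene, in replicate 1 (circles) and replicate 2 (squares), with 95% Poisson intervals of the summit pileup as bars. All 6 genes with a region lie below the dashed line at 24.5, the median over all protein-coding genes with a region at a start. Their intervals overlap one another, and *Nkx2-6* has no region. The region shown for *Nkx2-2* lies at starts of processed transcripts.

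*Nkx2-5* itself has 2 annotated starts, 3444 bp apart. The open region lies at the downstream start (26841565, minus strand), together with a weaker region at 26842069 to 26842352 with a fold enrichment of 5.98 and 3.52. The upstream start at 26845009 had no peak in either replicate, and the nearest shared region was 2657 bp away. The starts of the same gene thus differed in accessibility in both libraries.

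At *Nkx2-6*, the only annotated start, at position 69171802 of chromosome 14, had no peak in either replicate, and the nearest shared region lay 2742 bp downstream. That region, from 69174544 to 69175391, covers coding sequence of *Nkx2-6* and had a fold enrichment of 6.52 and 7.04. The lowest summit called anywhere in either list had 9 reads, so a pileup below that at the start would not be listed. The 5′ end of *Nkx2-6*, 500 bp on each side of the outermost start, had a CpG observed to expected ratio of 0.375, the lowest of the family, where the other members had 0.528 to 0.935. Genome-wide, a region was present at the start of 94.5% of the 10078 genes with a ratio of at least 0.6 at the 5′ end and of 37.1% of the 11860 genes below it. *Nkx2-3* (0.571) and *Nkx2-9* (0.528) were below 0.6 with an open start, as was the open downstream start of *Nkx2-5* (0.593), whose upstream start had 0.616 and no peak, so the family did not divide at this value.

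The promoters of *Nkx2-3* and *Nkx2-9*, 1 gene of each set with an open start, are shown to compare their CpG content. Each is the 250 bases before the RefSeq start on GRCm38, 5′ to 3′ along the gene, free of annotated exons, with each CG in capitals. RefSeq promoter entries were matched for 6 of the 7 genes, all but *Nkx2-6*. The *Nkx2-3* stretch (chr19:43612075-43612324, plus strand) has 14 CG and the *Nkx2-9* stretch (chr12:56613285-56613534, minus strand) has 13. The other matched genes had 8 (*Nkx2-5*), 8 (*Nkx2-2*), 9 (*Nkx2-1*) and 33 (*Nkx2-4*), and the median over 32851 RefSeq promoters was 6 with quartiles of 2 and 16.
Nkx2-3 promoter: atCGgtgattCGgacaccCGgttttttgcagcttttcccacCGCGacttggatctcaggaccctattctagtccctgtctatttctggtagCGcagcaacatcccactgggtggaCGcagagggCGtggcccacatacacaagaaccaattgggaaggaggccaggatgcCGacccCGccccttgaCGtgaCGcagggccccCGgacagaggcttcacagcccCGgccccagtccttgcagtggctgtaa
Nkx2-9 promoter: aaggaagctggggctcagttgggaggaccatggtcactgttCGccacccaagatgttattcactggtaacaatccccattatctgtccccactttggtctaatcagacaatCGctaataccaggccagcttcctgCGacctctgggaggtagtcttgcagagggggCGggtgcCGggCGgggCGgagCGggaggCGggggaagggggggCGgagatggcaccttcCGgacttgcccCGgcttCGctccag

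The family differed in where the accessible regions lay around each gene. The genes are short and spread over 5 chromosomes: *Nkx2-5* lies on chr17:26838664-26845009 (minus strand), *Nkx2-3* on chr19:43612325-43615892 (plus strand) and *Nkx2-6* on chr14:69171802-69175518 (plus strand). *Nkx2-1* (chr12:56531958-56536908) and *Nkx2-9* (chr12:56611389-56613284) are neighbours on the minus strand of chromosome 12. *Nkx2-2* (chr2:147177546-147194243) and *Nkx2-4* (chr2:147083316-147085445) are neighbours on the minus strand of chromosome 2, and no shared region lay where the windows of such neighbours overlap. *Nkx2-5* had 11 shared regions in its window, *Nkx2-6* 9, *Nkx2-1* 8, *Nkx2-2* 7, *Nkx2-3* 6, *Nkx2-9* 4 and *Nkx2-4* 3, which is 48 in all. Per 100 kb, the heart and pharyngeal members had 5.79 to 10.3 regions (median 8.68) and the neural and endodermal members 2.94 to 7.62 (median 4.96), so the ranges overlapped. This difference in density rests on distant regions: with 20 kb in place of 50 kb on each side it turned to −0.57, and with q-values of at most 1e-10 it was 0.488, against 3.72. Among the 11779 protein-coding genes of at most 20 kb, the median window held 6 regions, and 74.8% of those genes had fewer regions than *Nkx2-5*.

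**Figure D2:**
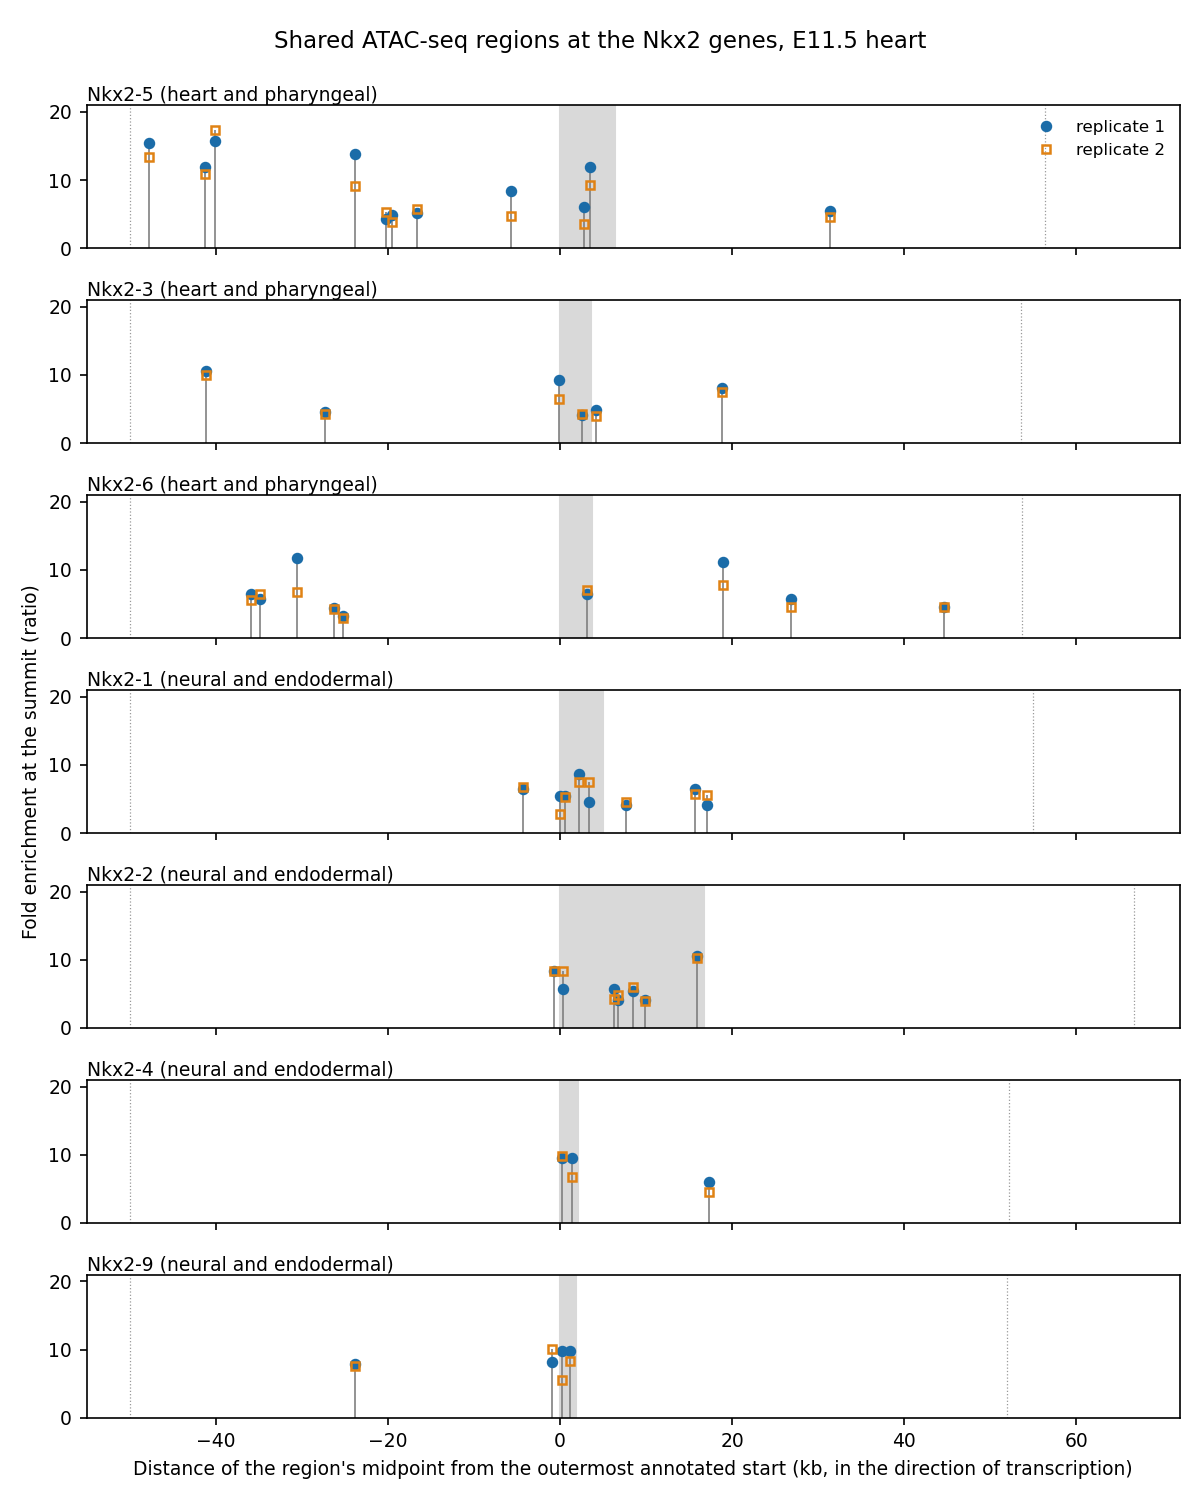
Fold enrichment (ratio) of each shared region against the distance of its midpoint from the outermost annotated start (kb, along transcription), with 1 panel per gene, circles for replicate 1, squares for replicate 2, grey for the gene body and dotted lines for the ends of the window. *Nkx2-5* has its 3 highest regions upstream, with midpoints between −47.8 and −23.9 kb on this axis, whereas the regions of *Nkx2-2* lie in or next to the gene.

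For the heart and pharyngeal members, 20 of 26 regions (76.9%) lay more than 5 kb from the gene body. For the neural and endodermal members, only 4 of 22 (18.2%) did, and 18 (81.8%) lay in the gene or within 5 kb of it. The limit of 5 kb was chosen after the positions were seen. In the windows of all protein-coding genes of at most 20 kb, 24.1% of regions lay within 5 kb of the gene, and 27.3% where the gene had a region at a start. The share of the heart and pharyngeal members, 23.1%, was thus close to that of other genes, and the share of the neural and endodermal members was above it. Within the heart and pharyngeal set, *Nkx2-3* differed from the other two, with 3 regions near and 3 distant. *Nkx2-2* was the extreme, with all 7 regions near and none in the rest of its window.

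**Figure D3:**
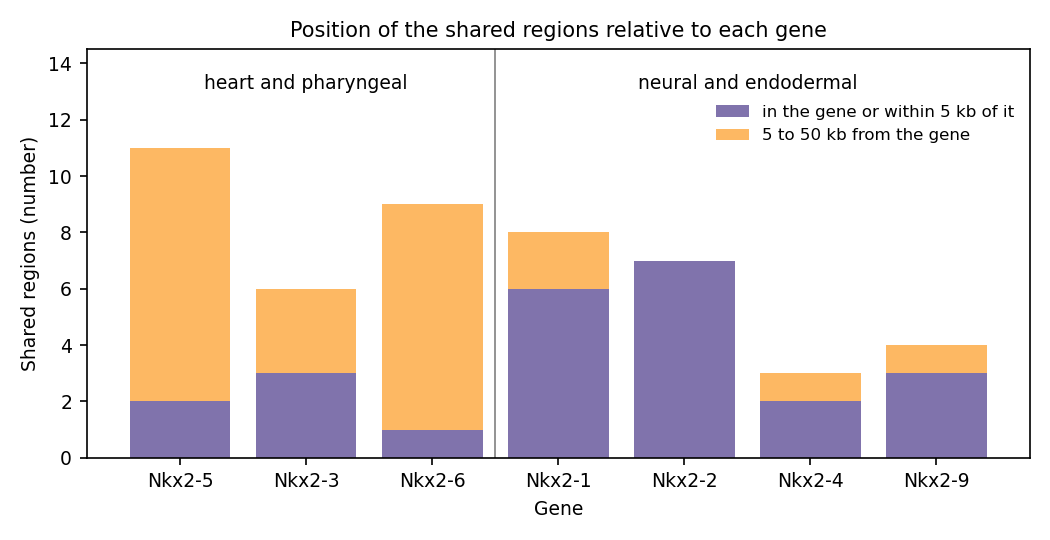
Number of shared regions in or within 5 kb of each gene (purple) and 5 to 50 kb away (orange). Distant regions make up 9 of 11 at *Nkx2-5*, 8 of 9 at *Nkx2-6*, 3 of 6 at *Nkx2-3* and 0 of 7 at *Nkx2-2*.

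A distal region, more than 1 kb from every protein-coding start, was present in the windows of all 7 members, where 83.2% of protein-coding genes have one. The regions near the genes were rich in CpG in both sets, with a median observed to expected ratio of 0.731 for the heart and pharyngeal and 0.692 for the neural and endodermal members. Distant regions had 0.281 and 0.327, although 4 distant regions of the heart and pharyngeal members were at 0.6 or above. Over all shared regions, the median was 0.690 within 1 kb of a protein-coding start and 0.214 elsewhere. The regions of the neural and endodermal members were also longer, with a median of 557.5 bp against 406.5 bp, where that of all shared regions was 388 bp.

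**Figure D4:**
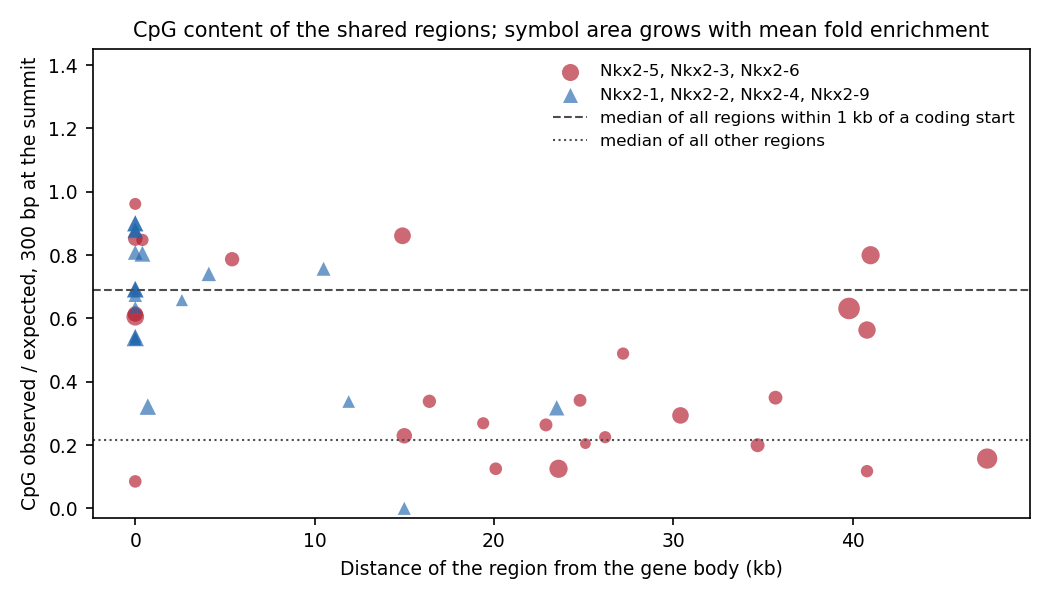
CpG observed to expected ratio of the 300 bp window on the replicate 1 summit against the distance of the region from the gene body (kb), with circles for heart and pharyngeal members, triangles for neural and endodermal members and a larger symbol for a higher mean fold enrichment. The dashed line is the median of all regions within 1 kb of a protein-coding start (0.690) and the dotted line that of all other regions (0.214), and most triangles lie at distance 0 between 0.5 and 0.9.

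The strongest region of *Nkx2-5* in its window of 50 kb on each side was not its promoter. This depends on the window: the highest mean fold enrichment was 10.6, at the start, with 20 kb on each side, and 43.2 with 100 kb. At 39.8 kb upstream (26884784 to 26885434), enrichment was 15.8-fold in replicate 1 and 17.3-fold in replicate 2 (57 and 68 reads), higher than at 95.3% of all distal regions. Its counting interval overlapped that of the promoter region in replicate 1 (12.0 to 20.3 against 8.72 to 16.0) and lay above it in replicate 2 (13.5 to 21.9 against 6.59 to 12.8). At 47.5 kb upstream (26892464 to 26893096) it was 15.5 and 13.3. These 2 regions are those whose sequences are printed above for *Nkx2-5*.
The region 23.6 kb upstream (26868651 to 26869127) had 13.9 and 9.05, and that 41.0 kb upstream (26886041 to 26886565) had 12.0 and 10.8. With the region at the downstream start, these formed 5 regions of 9.05 or more in both replicates, whereas the remaining 6 did not exceed 8.42 in replicate 1 and 5.78 in replicate 2. Within the 5, the order of the third to the fifth differed between replicates.

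The upstream regions lie among noncoding genes. The regions at 39.8 and 41.0 kb are within 1 kb of the start of the lincRNA gene *Gm17382*, and the region at 16.4 kb (26861447 to 26861838, with 5.16 and 5.78) is within 1 kb of that of *Gm20468*. By distance, the regions at 39.8, 41.0 and 47.5 kb were nearer to the start of *Kifc5b* (31.7, 30.5 and 24.0 kb) than to an *Nkx2-5* start, and the data hold no link between a region and a gene. Over the family, 40 of the 48 regions were nearest to a start of the member itself. Downstream, *Nkx2-5* had 1 shared region, 27.7 kb from a start, with 5.43 and 4.53, and replicate 1 alone had a peak of 7.88 from 26797417 to 26797814.

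*Nkx2-3* had its highest region 40.8 kb upstream (43570930 to 43571513 on chromosome 19), with 10.6 and 10.1. A second distant region, 15.0 kb beyond the gene (43630907 to 43631274), had 8.15 and 7.54. The region at the start, 43612022 to 43612492, came between them in replicate 1 with 9.24 and below both in replicate 2 with 6.54, and its counting intervals overlapped those of both. The other 3 regions did not exceed 4.89 in either replicate.

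*Nkx2-6* had most of its distant regions upstream. A group of 5 regions 25.1 to 35.7 kb upstream was led by that at 69141021 to 69141430 (30.4 kb), whose fold enrichment of 11.7 and 6.79 rests on 42 and 26 reads. The counting intervals of both replicates overlapped there, as they did in all 48 regions of the family.

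The neural and endodermal members had their highest regions over their own bodies or within 1 kb of them. *Nkx2-2* was led by a region of 1458 bp at its 3′ end (147177650 to 147179107 on chromosome 2), with 10.6 and 10.3, which was above its promoter regions in both replicates, although the counting intervals overlapped those of the promoter region at 147194621 to 147195333 (8.42 and 8.30). *Nkx2-1* was led by the region of 1169 bp at its downstream start (56534152 to 56535320 on chromosome 12), with 8.69 and 7.54, which is also within 1 kb of the start of the noncoding gene *Gm26973*. At the upstream start of *Nkx2-1* the values were lower, 5.43 and 5.28 for a region 0.4 kb downstream. The region on that start (56536750 to 56537066) had 5.43 and 2.77.
*Nkx2-4* and *Nkx2-9* each had 1 replicate 1 peak across the gene that overlapped 2 replicate 2 peaks, so that 1 accessible stretch counts as 2 regions there. With each run of overlapping peaks counted once, *Nkx2-1* had 6 regions, *Nkx2-2* 6, *Nkx2-9* 3 and *Nkx2-4* 2, the other members were as before, and the family had 43. The distant region of *Nkx2-9*, 23.5 kb upstream (56636781 to 56637503), had 7.88 and 7.54, and that of *Nkx2-4*, 15.0 kb beyond the gene, had 5.98 and 4.53. A fold enrichment above 10 in both replicates was reached by 4 of the 26 regions of heart and pharyngeal members, all of them distant, and by 1 of the 22 of the other members, the 3′ region of *Nkx2-2*. Levels of this size are common: a mean of 10.6, that of the *Nkx2-5* start region, exceeded only 75.3% of all shared regions and 85.7% of distal ones. The share of all regions above 10 in both replicates was not counted.

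The genes around these factors in the same pathways gave a background for the starts. All 15 heart transcription factors that act with NKX2-5 had a shared region at a start, with a median fold enrichment of 21.7, and so did all 12 genes known as its targets, with a median of 21.7. *Nkx2-5* at 10.6 lay below both medians, as did *Tbx5* (5.10) and *Tbx2* (8.65), T-box factors of the chambers and of the non-chamber myocardium, and *Irx4* (6.69), a ventricular homeobox gene. For ventral neural and forebrain patterning genes, 10 of 12 had a region at a start, with a median of 9.42 when genes without a region count as 0. For other NK class homeobox genes it was 11 of 14 and 9.39, and for thyroid, lung and pancreas genes 6 of 12 and 2.03. Over all protein-coding genes, 67.6% had a region at a start, with a median of 14.6 when genes without a region count as 0. Among the genes with a region, the median was 24.5, above the 21.7 of the heart transcription factors and of the targets.

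**Figure D5:**
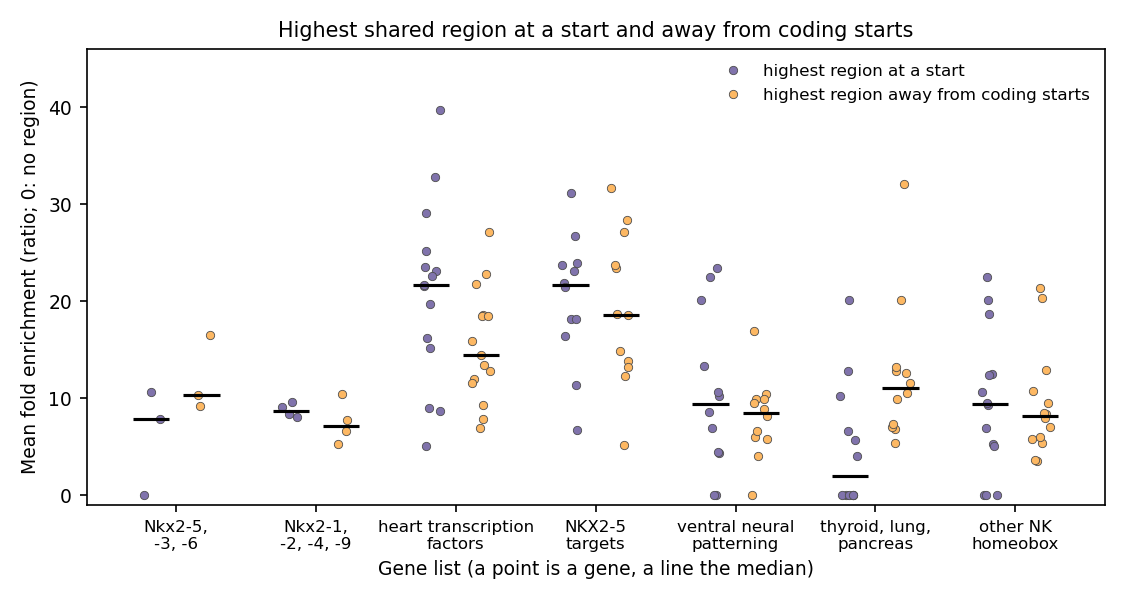
Mean fold enrichment (ratio) of the highest shared region at a start (purple) and away from protein-coding starts (orange) for each gene of the *Nkx2* sets and of 5 gene lists, with 0 for no region and black lines for medians. The medians at starts are 21.7 for the heart transcription factors and 21.7 for NKX2-5 targets, and all 7 *Nkx2* genes lie below them.

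Away from protein-coding starts, the highest region of *Nkx2-5*, within 1 kb of the start of *Gm17382*, had a mean fold enrichment of 16.6. That was above 80.7% of the protein-coding genes of at most 20 kb and above the heart transcription factor median of 14.4. The windows of long genes in the lists were wider than those of the *Nkx2* genes. The targets of NKX2-5 had a median of 18.6 in the same measure, led by *Irx4* with 31.7 and *Nppa*, the atrial natriuretic peptide gene, with 28.4. *Nkx2-3* and *Nkx2-6* had 10.3 and 9.23, next to 5.25 to 10.5 for the neural and endodermal members. *Nkx2-5* was the only member of the family whose highest distal region exceeded the heart transcription factor median. This rested on the region near *Gm17382* alone, since the next highest, 47.5 kb upstream, had 14.40 against a median of 14.42.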

How the data were processed

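ATAC-seq of wildtype E11.5 hearts was analysed from the peak lists of 2 replicates of 1 group, with 118027 and 114783 peaks. The submitters' notes and the study's methods name Trim Galore 0.6.6 with cutadapt for trimming single-end reads, Bowtie2 2.4.2 for alignment to GRCm38/mm10 and SAMtools 1.12 for filtering out duplicates and poorly mapped reads. The authors ran MACS2 on each replicate, with no local background. The deposited fold enrichment is a ratio at the summit. The lists as deposited also hold −log10 p, −log10 q and a score, which is −log10 q scaled by 10. All p-values lie inside the limit given in the methods, the shortest peak of 200 bp is longer than the read extension they state, and no peak was dropped.

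Shared regions were the stretches covered by peaks of both replicates (at least 1 bp, adjoining pieces merged), and a region takes the fold enrichment of its peaks, also where a peak is split. Summit reads were derived from the spacing of fold enrichment values (100% whole within 0.02 reads), and their 95% intervals are exact Poisson intervals. Distances were taken to the nearest edge of a region. Genes came from GENCODE M21, promoter sequences from RefSeq on GRCm38, and other sequence from the GRCm38 reference.

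The genes, gene lists and motifs were chosen with earlier results of these data known. The text names the 7 genes with every shared region at a start and the 3 regions of highest mean fold enrichment per window, and neighbours whose start lies in a window, except 1 result that is not reported here. Other regions, *Kifc5b*, the noncoding genes and the listed genes given with values were named after their values were seen, and the 5 kb limit and the comparison with genes of at most 20 kb were also chosen then. Alternatives were limits on p (0.00001) and q (1e-10), a reciprocal overlap of 50%, each replicate alone, start windows of 500 bp and 2 kb, coding starts only, flanks of 20 and 100 kb, other coding starts left out, and replicate 2 summits for motifs. Counting a run of overlapping peaks once and near limits of 2 and 10 kb were chosen later, with the regions in view. The overlap code was tested on simulated data. SciPy 1.17.1, pandas 2.3.3, pysam 0.24.0, NumPy 2.4.6 and Matplotlib 3.10.9 were used under Python 3.11.15.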

Additional observations from a re-analysis of the deposited data

How the results depend on the processing

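The count of 6 members with an open start was 6 under every alternative except a reciprocal overlap of 50%, where *Nkx2-1* and *Nkx2-4* lost theirs and 4 remained. With q-values of at most 1e-10, *Nkx2-5* had 5 regions and the family 21, by construction of fewer peaks. With 20 kb on each side *Nkx2-5* had 5. With 100 kb the counts per gene summed to 95, of which 79 regions were distinct, because windows of neighbouring members then share regions.

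The difference in median density between the sets (3.72 regions per 100 kb) turned to −0.57 with 20 kb on each side. It was 2.51 with 100 kb, 2.75 with the p limit, 2.75 without other coding starts, 0.488 with the q limit, 5.79 with reciprocal overlap, 4.63 with runs of peaks counted once, and 3.38 to 3.70 without 1 replicate.

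The share of regions within 5 kb was, for heart and pharyngeal members (23.1%), 27.3% with the q limit, 26.9% with a near limit of 10 kb and 24.1% to 27.6% without 1 replicate. For neural and endodermal members (81.8%) it was 81.0% with the p limit, 80.0% with the q limit, 66.7% with reciprocal overlap, 76.5% with runs counted once, 72.7% with a near limit of 2 kb and 72.7% to 73.9% without 1 replicate. The cause of these shifts was not tested, and no outlier could be assessed with 2 libraries. No paired analysis was possible because 1 group was profiled.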
